A study of Rattus norvegicus with 6 samples.

Results

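Cd68, Cd74 and Aif1 are 3 genes read out in the rat esophagus as markers of macrophages and of antigen presentation. They were chosen by name as 3 of the 32623 genes in the count table, and their rows were taken by the Ensembl identifiers ENSRNOG00000037563 for Cd68, ENSRNOG00000018735 for Cd74 and ENSRNOG00000000853 for Aif1. The count table lists identifiers without symbols, so the pairing of each identifier with its symbol was given with the choice of genes and was not tested against the table. RNA came from full-thickness esophagus of wild type male Sprague-Dawley rats, an outbred strain. Their age is given as 8 to 10 weeks, which is not tied here to the start or to day 28. The control group was 3 untreated rats. The injured group was 3 rats in which a 3D-printed device was passed 9 to 10 cm down through the mouth and moved back and forth for 8 to 10 friction cycles of 3 to 5 s. Tissue from both groups was taken on day 28, each library came from 1 animal, and the injury is a localized one while the RNA came from the full thickness of the wall. The labels describe the controls as untreated and name no sham insertion, so the friction and the handling that went with it cannot be told apart.

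Cd68 is a heavily glycosylated membrane protein of lysosomes and endosomes that is abundant in macrophages and other phagocytes. Cd74 is the invariant chain, which occupies the groove of newly made MHC class II molecules, guides them to the endosome and is cut away there before peptide is loaded. It is also a cell-surface receptor for the cytokine MIF. Aif1, also called Iba1, is a calcium-binding protein that bundles actin in macrophages and microglia. Macrophages can carry all 3, while Cd74 is also made by B cells, dendritic cells and, under interferon, by many other cell types.

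Total counts ranged from 14181903 to 18376578 per library, and each library held counts for 17381 to 17907 genes. All 3 genes passed the filter on low counts, which kept 14481 genes. Levels are given as CPM, counts per unit of sequencing depth on the usual CPM scale, with libraries scaled by edgeR's TMM method (a trimmed mean of log ratios). They are not corrected for gene length, so they are compared between libraries and not between genes. Defining markers of esophageal epithelium, muscle or immune cells could not be read from a table of identifiers, and the labelled tissue was not checked.

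Of the 3 genes, Cd68 and Cd74 were higher in every injured animal than in every control, and Aif1 overlapped between the groups. Cd68 had the largest fitted difference, 4.32-fold, followed by Cd74 with 2.17-fold and Aif1 with 1.74-fold. None of the 3 passed edgeR's quasi-likelihood test at an adjusted p under 0.05, the level at which 1.35% of all tested genes were called and 0.711% were called higher in the injured group. At an unadjusted p under 0.05 (edgeR), 2 of the 3 were higher, against 9.98% of all tested genes. Groups that did not overlap, with the injured animals higher, were found in 2 of the 3 and in 13.5% of all tested genes. The median log2 fold change was 1.12 over the 3 genes and -0.01 over all genes tested. Since the 3 genes were chosen with earlier results of these data known, these comparisons with all genes do not test them as a set. In bulk tissue, more cells of a type and more RNA per cell cannot be told apart.

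The sequence around the annotated start is shown for Cd68 and Cd74, the 2 of the 3 genes that matched an entry in the promoter table used, as a pair whose groups did not overlap. Aif1 had no match there. Each sequence runs from 250 bases before the start to 50 after it and comes from RefSeq on build GRCr8, whereas the submitters' processing notes name Rnor_6.0 for the counts. The Cd68 window is chr10:54882392-54882691 on the minus strand and the Cd74 window is chr18:56526956-56527255 on the plus strand. Capitals mark matches on either strand to GAGGAA, the core read by PU.1-type Ets factors of myeloid cells, to CCAAT, to TAGCAAC, a core of the X box of MHC class II promoters, and to the NF-kB consensus.
Cd68: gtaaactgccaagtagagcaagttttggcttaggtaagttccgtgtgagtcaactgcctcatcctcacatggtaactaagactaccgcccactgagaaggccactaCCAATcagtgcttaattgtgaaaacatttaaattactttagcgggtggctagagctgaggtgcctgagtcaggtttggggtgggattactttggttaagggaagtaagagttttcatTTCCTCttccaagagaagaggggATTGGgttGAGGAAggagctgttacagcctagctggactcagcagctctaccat
Cd74: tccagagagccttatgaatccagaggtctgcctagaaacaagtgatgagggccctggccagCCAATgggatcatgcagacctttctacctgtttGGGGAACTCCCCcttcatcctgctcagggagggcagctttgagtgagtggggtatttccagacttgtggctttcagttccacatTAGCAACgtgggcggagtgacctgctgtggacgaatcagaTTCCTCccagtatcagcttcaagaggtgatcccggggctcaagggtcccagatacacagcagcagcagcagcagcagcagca
Both windows held GAGGAA and CCAAT, motifs present in 27.6% and 37.5% of 33469 RefSeq promoter windows of the same length. In Cd68 GAGGAA lay at 5 to 10 after the start, counted from 1 at the first base, and its reverse complement, TTCCTC, at -27 to -22. The window of Cd74 held it once, as the reverse complement at -32 to -27. Of the other motifs, the X box core lay only in the Cd74 window of these 2, at -72 to -66, and 3.58% of all windows held it. The NF-kB consensus matched the Cd74 window in overlapping frames from -156 to -145, and 7.51% of all windows matched it. These motifs were picked after the sequences had been seen, and a match describes letters, not a bound site.

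In controls Cd68 was measured at 8.34 (replicate 1), 6.93 (replicate 2) and 14.6 CPM (replicate 3), and in injured rats at 17.6, 68.1 and 43.0 CPM in the same order. The lowest injured animal lay 1.20 times above the highest control, and the injured animals themselves spanned 3.86-fold. Injured replicate 1 was therefore much closer to control replicate 3 than to the other injured animals. Control rats averaged 9.97 ± 4.11 CPM and injured rats 42.9 ± 25.2 CPM (SD, n = 3 each). The fitted log2 fold change of 2.11 ± 0.52 (SE) had a 95% interval from 0.87 to 3.35 (edgeR, adjusted p = 0.0956, unadjusted p = 0.00515). In linear terms the interval ran from 1.83-fold to 10.2-fold. Another gene, Mpdu1, lies 25 bases from Cd68 in RefSeq on GRCr8, and whether its reads entered the Cd68 count was not tested. Of all tested genes, 1.45% had a larger fitted rise.

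The control animals had 47.2, 101 and 131 CPM of Cd74, and the injured animals had 157, 259 and 189 CPM, each in the order of the replicate numbers. Control replicate 1 was well below both other controls, which gave the control group a span of 2.76-fold. The lowest injured animal exceeded the highest control 1.20 times, and the injured animals spanned 1.65-fold. Averages were 93.1 ± 42.3 CPM for controls against 202 ± 52.3 CPM for injured rats (SD, n = 3 each). Fitted over all genes, the log2 fold change was 1.12 ± 0.37 (SE), with a 95% interval from 0.23 to 2.00 (edgeR, adjusted p = 0.160, unadjusted p = 0.0210). The interval in linear terms ran from 1.17-fold to 4.01-fold. A larger fitted rise was found in 4.89% of all tested genes.

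For Aif1 the values were 3.48, 8.32 and 12.4 CPM in the controls against 8.68, 21.4 and 12.0 CPM in the injured animals, in replicate order. Control replicate 3 exceeded injured replicates 1 and 3, and only injured replicate 2 lay above every control. The group averages were 8.07 ± 4.47 CPM (controls) and 14.0 ± 6.62 CPM (injured) with SD over 3 animals each. The log2 fold change of 0.80 ± 0.51 (SE) did not pass the test (edgeR, adjusted p = 0.400). The 95% interval ran from -0.41 to 2.01, that is from 0.754-fold to 4.03-fold, so the data allow a 4-fold higher level as well as a lower one.

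**Figure D1:**
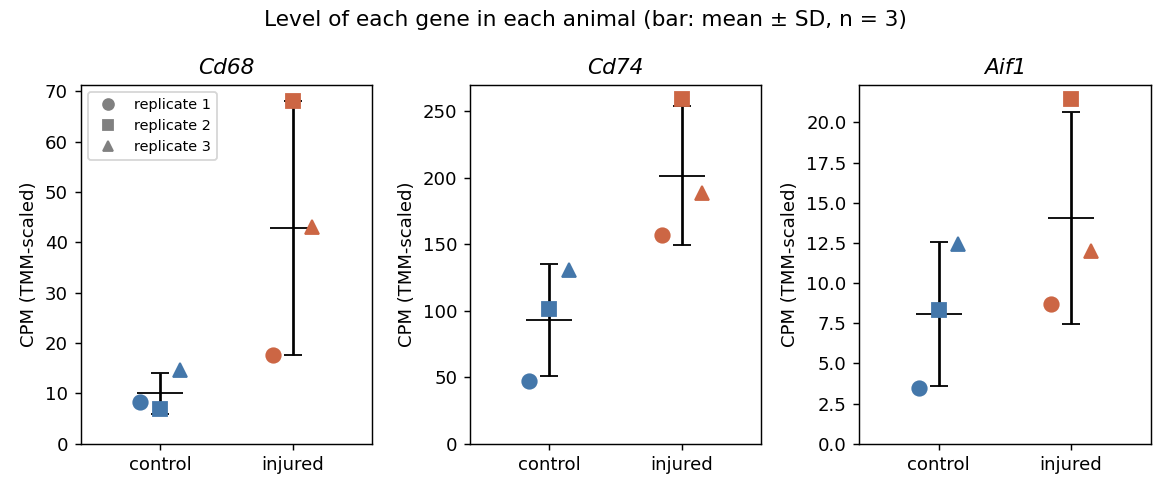
Level of Cd68, Cd74 and Aif1 in CPM (vertical axes, each from 0) in the 3 control and 3 injured animals, with 1 symbol per animal, its shape showing the replicate number, and the mean ± SD in black. The groups are apart for Cd68 and Cd74 and overlap for Aif1, where control replicate 3 lies at 12.4 CPM and injured replicate 1 at 8.68 CPM.

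**Figure D2:**
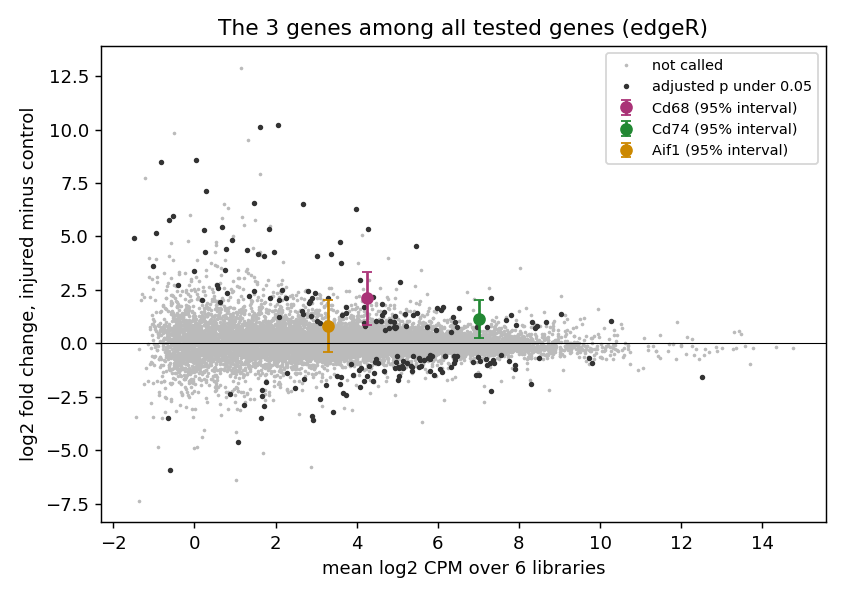
Log2 fold change, injured minus control (vertical axis), against mean log2 CPM over 6 libraries (horizontal axis) for the 14481 tested genes, with genes called at an adjusted p under 0.05 (edgeR) in black and the 3 genes in colour with their 95% intervals. The interval of Aif1 crosses 0, those of Cd68 (0.87 to 3.35) and Cd74 (0.23 to 2.00) do not, and none of the 3 is among the called genes.

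The spread between libraries of a group was large beside the error of counting. The 3 genes had 58 to 4270 counts per library, for which Poisson counting alone gives a coefficient of variation of 1.53% to 13.1%. Between animals of a group the coefficient of variation was 41.2% and 58.8% for Cd68, 45.4% and 25.9% for Cd74 and 55.4% and 47.1% for Aif1, in controls and injured rats in that order. The biological coefficient of variation fitted by edgeR was 43.1% for Cd68, 33.3% for Cd74 and 43.9% for Aif1, against a median of 20.9% over all tested genes. Only 11.1%, 21.5% and 10.4% of tested genes, in the same order, had a larger one.

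Within the controls, Cd74 and Aif1 followed each other from animal to animal and Cd68 did so less closely. In the injured group all 3 genes ranked the animals in the same order. The log2 difference of control replicate 1 from the mean of the other 2 controls was -1.28 for Cd74 and -1.51 for Aif1, but -0.27 for Cd68. Control replicate 3 was the highest control and injured replicate 2 the highest injured animal in all 3 genes. Injured replicate 1 was the lowest injured animal in all 3, with a log2 difference from the other 2 of -1.61 for Cd68, -0.49 for Cd74 and -0.88 for Aif1. These values, from single libraries, carry no test.

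The likeness of the profiles was measured as the root mean square difference over the 6 libraries between log2 CPM values, each gene centred on its own mean. It was 0.26 between Cd74 and Aif1, 0.66 between Cd68 and Cd74 and 0.75 between Cd68 and Aif1. Among 13658 other tested genes with at least 1 CPM on average, 28 were closer to Aif1 than Cd74 was, and 79 were closer to Cd74 than Aif1 was. By comparison, 296 were closer to Cd68 than Cd74 was, and 463 were closer to Cd68 than Aif1 was. In the other direction, 2188 genes were closer to Cd74 than Cd68 was, and 3637 were closer to Aif1 than Cd68 was. The profile nearest to Cd74 was that of ENSRNOG00000017803, at 0.10, and the one nearest to Aif1 was that of ENSRNOG00000011683, at 0.12. These genes have no symbol here and were themselves not called (edgeR, adjusted p = 0.255 and 0.390). The closest gene to Cd68 lay at 0.21. The measure is not scaled to a gene's own spread, and the median distance to all genes compared was 1.22 for Cd68 against 0.83 for both Cd74 and Aif1. The measure also takes in the difference between the groups, so it does not describe the spread within a group alone. All profiles come from the same 6 libraries and share their scaling.

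**Figure D3:**
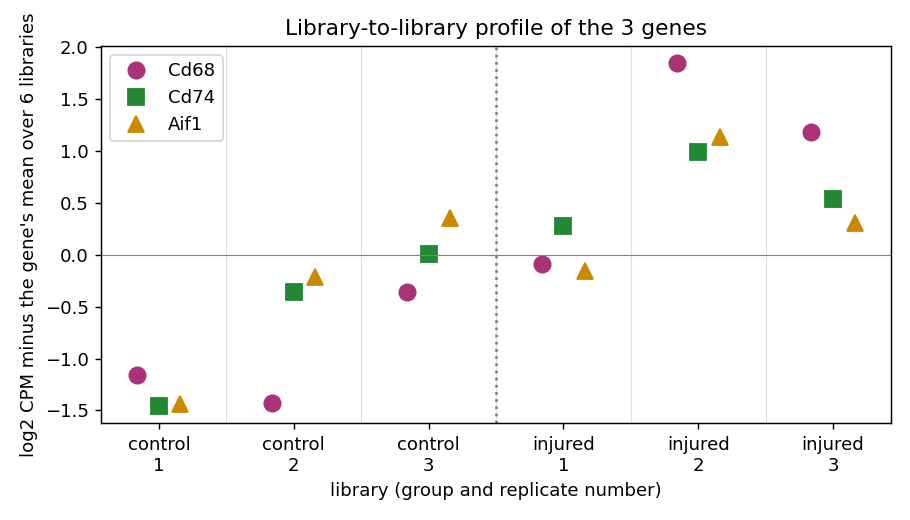
Log2 CPM of Cd68 (circles), Cd74 (squares) and Aif1 (triangles), each minus its own mean over the 6 libraries (vertical axis), in each library (horizontal axis; the dotted line parts the groups). Cd74 and Aif1 differ by a root mean square of 0.26 over the libraries, while Cd68 lies below both in control replicates 2 and 3 and above both in injured replicates 2 and 3.

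Ratios of counts within a library do not depend on how libraries are scaled. The Cd74 to Aif1 ratio was 13.5, 12.2 and 10.5 in the controls against 18.0, 12.1 and 15.7 in the injured animals, in replicate order. Its mean on the log2 scale was 3.58 ± 0.18 in controls and 3.91 ± 0.29 in injured rats (SD, n = 3 each), a difference of 0.33 (two-sided exact permutation test, p = 0.3). The ratios to Cd68 varied more, with SDs of 0.43 to 0.77 on the log2 scale within a group. Cd74 to Cd68 was 5.65, 14.6 and 8.90 in controls and 8.90, 3.81 and 4.38 in injured rats, a log2 difference between the group means of -0.77 (two-sided exact permutation test, p = 0.3). Aif1 to Cd68 was 0.419, 1.20 and 0.848 in controls and 0.493, 0.315 and 0.279 in injured rats, a log2 difference of -1.10 (two-sided exact permutation test, p = 0.2). The groups overlapped in all 3 ratios. After adjustment over the 3 ratios each exact p was 0.3, and 3 animals against 3 cannot give a p under 0.1. Whether the difference was larger in Cd68 than in Aif1 or Cd74 therefore cannot be decided by this test.

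The call for Cd68 and Cd74 depended on the test. DESeq2, which called 8.68% of the genes it tested and 4.7% as higher, called Cd68 with a log2 fold change of 2.11 ± 0.48 (SE, adjusted p = 0.000462) and Cd74 with 1.13 ± 0.37 (SE, adjusted p = 0.0305). It did not call Aif1, at 0.81 ± 0.50 (SE, adjusted p = 0.366). With DESeq2 the call for Cd68 was lost without control replicate 1 (adjusted p = 0.0675) and held in the other 5 fits that left out 1 library. That for Cd74 was lost without control replicate 2, injured replicate 2 or injured replicate 3 (adjusted p = 0.0642, 0.237 and 0.157). These 6 fits called 6.51%, 3.87% and 5.13% of their genes as higher without control replicates 1, 2 and 3, and 4.02%, 2.2% and 2.25% without injured replicates 1, 2 and 3. DESeq2 with the replicate number as a block called Cd68 and Cd74, and 5.91% of its genes as higher, and did not call Aif1 (adjusted p = 0.119). Limma-voom, with and without sample weights, called none of the 3 genes, with adjusted p of 0.109 and 0.152 for Cd68, and called 5.79% and 0.856% of all tested genes. With the replicate number as a block, edgeR called 546 genes instead of 196, or 3.77% of those tested, and again none of these 3 (adjusted p = 0.0751 for Cd68, 0.0593 for Cd74 and 0.174 for Aif1). No fit turned the direction of any of the 3.

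Leaving out a single library moved the size of all 3 differences. The log2 fold change of Aif1, 0.80 with all libraries, was 0.44 without control replicate 1, 0.36 without injured replicate 2 and 1.25 without control replicate 3 (edgeR). For Cd74 it was 0.80 without control replicate 1, the library with the lowest Cd74, and 1.45 without control replicate 3. For Cd68 it ran from 1.61 without injured replicate 2 to 2.50 without control replicate 3. None of these edgeR fits called any of the 3 genes.

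**Figure D4:**
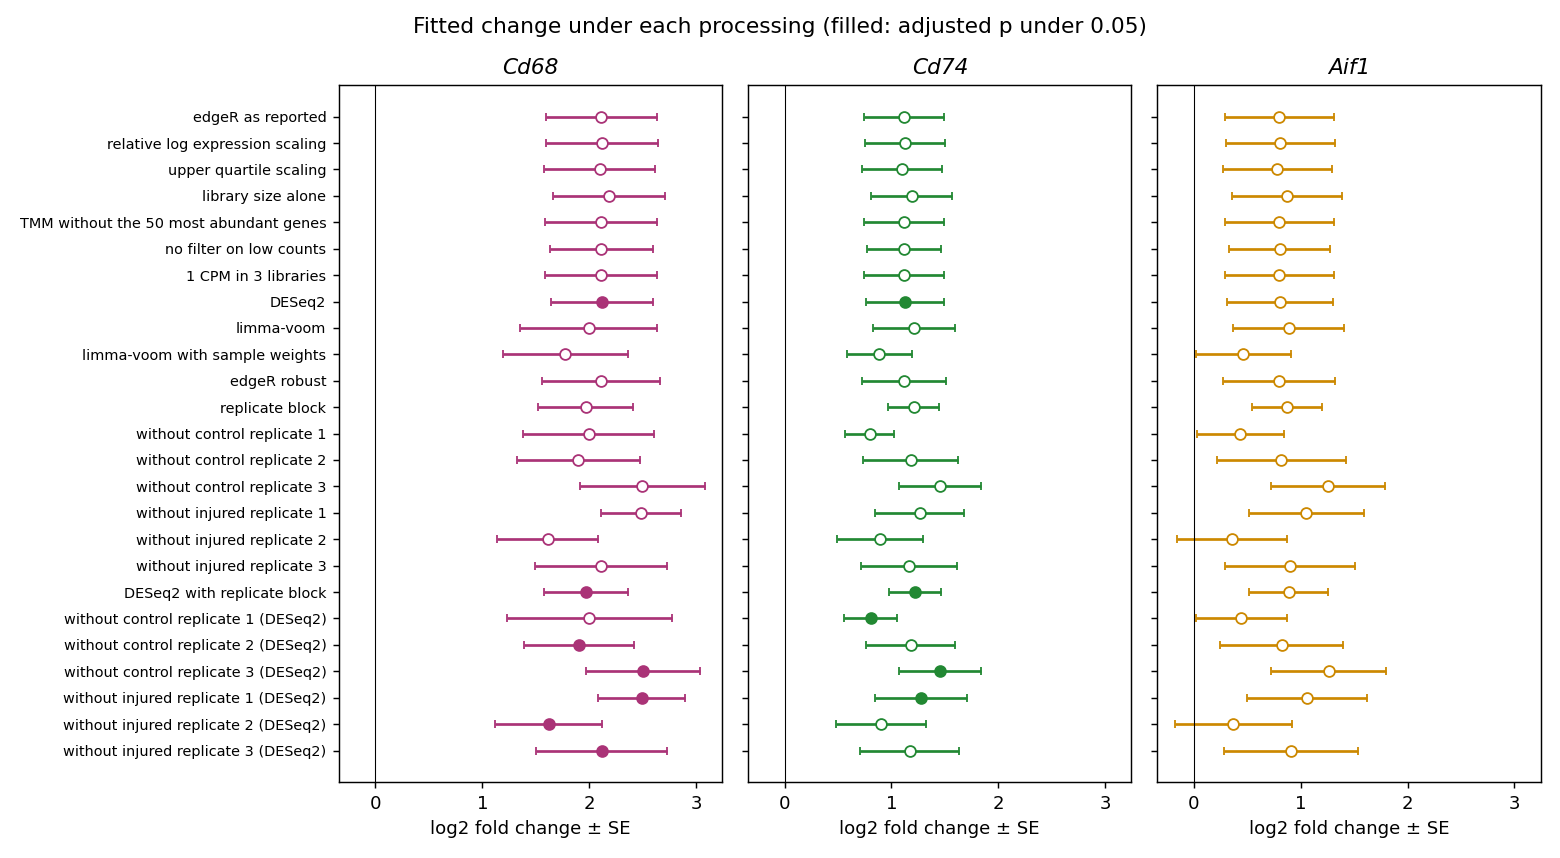
Log2 fold change, injured minus control, with its standard error (horizontal axes) for Cd68, Cd74 and Aif1 under the reported edgeR fit and 24 alternatives (rows), filled where the adjusted p was under 0.05. All values lie above 0, filled symbols occur only with DESeq2, in 7 alternatives for Cd68 and 5 for Cd74, and Aif1 has none.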

How the data were processed

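Poly(A)-selected RNA of 6 esophagi was sequenced as paired-end reads. The deposited file holds the authors' raw counts by gene, with 1 column for each animal and no normalization. The submitters' processing notes name HISAT2 2.2.1 and HTSeq 0.6.1, with Rnor_6.0 as the build. They also list fastp 0.24.1, bcl2fastq 2.20.0.422 and DESeq2 1.50.2. For the annotation release, the strand setting and reads with several matches, the choice is not given in the sources used. In RefSeq on GRCr8 none of the 3 genes overlapped another gene, but Mpdu1 lay 25 bases from Cd68, against 1030 and 3009 bases to the nearest gene of Cd74 and Aif1.

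Genes were filtered with filterByExpr (minimum count 10, minimum total 15) of edgeR 4.0.16 in R 4.3.3, scaled by TMM and tested by quasi-likelihood with a group term alone. Benjamini-Hochberg adjustment ran over 14481 genes. Standard errors were |log2 fold change| over the root of F, and intervals used the test's degrees of freedom. Log2 CPM used a prior count of 2, and ratios a pseudocount of 0.5. The test was checked on simulated counts. DESeq2 1.42.0 and limma 3.58.1 were alternatives, as were other scalings, other filters, a replicate block and leaving out each library. DESeq2 with a block, and without each library, was added after the data were seen.

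Deviations from the group mean were correlated across genes between control and injured libraries of the same number (0.37, 0.37 and 0.10, with a limit of 0.1). Libraries of different numbers were not compared in the same way, so these correlations cannot establish a pairing, and the labels name none. The blocked fits, run as alternatives, took the replicate number as the block without knowing what it stands for.

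The genes and lists were chosen with earlier results of these data known. The text names the 3 genes, and by identifier the nearest profiles to Cd74 and Aif1, with at most 2 allowed. Mpdu1 is named only for its place beside Cd68 on the chromosome. The reference table of 47357 genes held 0 Ensembl identifiers, so the 13 marker lists (108 symbols) could not be matched to the counts and were not tested. The labels call the 6 libraries separate animals.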

Additional observations from a re-analysis of the deposited data

How the results depend on the processing

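The fitted log2 fold changes barely moved with scaling or filtering, from 2.09 to 2.19 for Cd68, 1.10 to 1.19 for Cd74 and 0.78 to 0.88 for Aif1. Over the 14 edgeR alternatives the adjusted p was 0.0642 to 0.289, 0.0593 to 0.369 and 0.174 to 0.753 in that order, so no edgeR fit called any of the 3. Leaving out 1 library gave 1.61 to 2.50 for Cd68, 0.80 to 1.45 for Cd74 and 0.36 to 1.26 for Aif1, with edgeR or DESeq2. Calls were gained with DESeq2 (2.11 for Cd68 and 1.13 for Cd74) and with DESeq2 and the replicate block (1.97 and 1.22). DESeq2 without 1 library also called Cd68 at 1.90 and 2.50 without control replicates 2 and 3 and at 2.49, 1.62 and 2.11 without injured replicates 1, 2 and 3. It called Cd74 at 0.81 and 1.45 without control replicates 1 and 3 and at 1.28 without injured replicate 1. The replicate block left every edgeR call on the 3 genes as it was. The number of genes called was 103 higher and 93 lower with edgeR, 756 and 641 with DESeq2, 953 and 628 with DESeq2 and the replicate block, 287 and 259 with edgeR and the replicate block, 344 and 494 with weighted limma-voom, and 55 and 69 with limma-voom. Leaving out 1 library gave 2 to 134 higher and 0 to 200 lower with edgeR, while DESeq2 gave 985, 615 and 800 higher and 898, 387 and 444 lower without control replicates 1, 2 and 3, and 656, 333 and 340 higher and 400, 367 and 248 lower without injured replicates 1, 2 and 3. Library size alone called 129 higher and 67 lower, which moved the share of higher calls from 52.6% to 65.8%. For the ratios, the replicate block gives the same mean difference by construction, and its exact sign-flip p was 0.5 for each, where 3 pairs cannot give less than 0.25. No ratio changed sign without 1 library, with ranges of -1.14 to -0.42 for Cd74 to Cd68, -1.52 to -0.76 for Aif1 to Cd68 and 0.20 to 0.49 for Cd74 to Aif1. The cause of these shifts was not tested. Poisson counting alone gives a coefficient of variation of at most 13.1% for these genes, and edgeR fitted 33.3% to 43.9% between libraries beyond counting, a spread that also holds dissection and library preparation, since each animal gave 1 library.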

Other observations

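Differences between same-numbered libraries, injured minus control, were also taken for the 3 genes. For Cd68 the log2 difference was 1.07, 3.28 and 1.55 for numbers 1 to 3. Cd74 gave 1.73, 1.35 and 0.53, and Aif1 gave 1.29, 1.35 and -0.05. Number 1 was the lowest of the 3 for Cd68 and the highest for Cd74, while number 3 was the lowest for both Cd74 and Aif1. The number comes from the labels, which do not say what it stands for. These are thus differences between separate animals and not responses within a known pair.

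Control replicate 1 was low for Cd74 and Aif1 beyond what most genes showed: 3.51% and 2.43% of tested genes deviated further down from the other 2 controls in that library, against 26.4% for Cd68. In injured replicate 1, 1.14% of tested genes lay further below the other injured libraries than Cd68 did.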
